A study of Mus musculus with 15 samples.

Results

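The response of the lung to fibrotic injury was set against the response of the kidney, gene by gene, as a difference of differences. The lung change was the log2 level in bleomycin lungs minus that in healthy lungs, the kidney change was that in UUO kidneys minus that in healthy kidneys, and the kidney change was subtracted from the lung change. These 4 groups hold 11 of the 14 samples of the series. The other 3, lungs of mice with kidney fibrosis, are in no group compared, but shared the normalization, the choice of probes and the estimate of the spread. Genes were then separated into those that changed in the same direction in both organs and those that changed in opposite directions.

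All samples were organs of BALB/c mice, from which total RNA was taken with TRIzol and read on Illumina mouse whole-genome arrays. Lung fibrosis was made with bleomycin, a DNA-damaging drug, given into the trachea. Kidney fibrosis was made by unilateral ureteral obstruction (UUO), surgery that closes the ureter of 1 kidney. The healthy lungs and healthy kidneys came from the same 3 mice, and each remaining sample of the 4 groups came from a different mouse. Ages, the time between injury and collection, sham surgery and a vehicle given to the control mice are not stated in the labels. The healthy organs may therefore differ from the injured ones in every step of the injury procedure.

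Fibrosis in either organ is a repair response in which fibroblasts lay down collagen and other matrix proteins around a damaged epithelium. Bleomycin first harms the alveolar epithelium and the capillaries of the lung, whereas obstruction stretches and starves the kidney tubule. Macrophages enter both organs, TGF-beta is the best known ligand that drives matrix production, and MHC class II molecules show peptides to helper T cells.

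Levels are log2 probe intensities, changes are log2 values ± SE from limma, and "rose" or "fell" means a Benjamini-Hochberg adjusted p under 0.05 over the 11651 genes tested. Groups had 3 samples each, except for UUO kidney with 2. A positive difference means that the lung change lay above the kidney change. Between 32.4% and 41.5% of the probes of an array were above background, and with so few arrays per group the precision is limited. Because these are whole organs, fewer cells of a type and less RNA per cell cannot be told apart.

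Several libraries stood apart before any comparison. Healthy lung 3 held liver transcripts (Apoa1 at 13.77, against 4.51 and 4.48 in the other healthy lungs), and bleomycin lung 1 held kidney transcripts (Umod at 9.03, against 5.62 and 4.43 in the other bleomycin lungs and 4.48 to 4.52 in the healthy lungs). Muscle transcripts were high in healthy lungs 1 and 2 (Myh6 at 11.91 and 12.82, against 6.11 in healthy lung 3 and 9.73 to 10.72 in the bleomycin lungs), and Acta1 was at 12.93 in healthy lung 2. Their part in the lung change was not tested. Both UUO kidneys held the airway transcript Scgb1a1 at 12.30 and 11.19, against 4.35 to 4.49 in healthy kidneys. Xist, the RNA of the inactive X chromosome, was above background in both UUO kidneys (10.68 and 10.40) and at background in the healthy kidneys (4.39 to 4.70), whereas the Y-linked Eif2s3y was at 4.39 and 4.38 in the UUO kidneys and at 8.89 to 9.25 in the healthy kidneys. Among the 6 lungs compared, this pattern was found in bleomycin lung 3 alone, with Xist at 8.86 and Eif2s3y at 4.41. Sex and obstruction therefore cannot be told apart in the kidney change. Of 11 male-biased kidney transcripts 10 fell in the UUO kidney. Otherwise the organs carried their defining transcripts, with Sftpc at 13.32 to 13.99 in these lungs and Umod at 14.22 to 14.47 in these kidneys.

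In the reported setting the organs responded with nearly equal numbers of genes, but the changes were seldom shared. In the lung 5023 genes passed (43.1% of those tested), 2481 of them rising (21.3%) and 2542 falling (21.8%). In the kidney 5010 passed (43.0%), 3035 rising (26%) and 1975 falling (17%). The numbers were less equal in some other settings. With arrays weighted by their estimated quality 6283 genes passed in lung and 3650 in kidney, and with the authors' deposited matrix values 6625 and 5246. The difference between the organs passed for 5235 genes (44.9%), of which 2086 lay higher in lung (17.9%) and 3149 higher in kidney (27%), and 6107 genes had an unadjusted p under 0.05. Counts of list members given below are to be read beside these shares of all genes. The median over all genes was -0.04 for the lung change, 0.11 for the kidney change and -0.17 for the difference, and the 2 changes had the same sign in 49.8% of the genes.

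Of the 2333 genes that passed in both organs, 1156 moved in the same direction (9.92% of those tested) and 1177 in opposite directions (10.1%). The shared direction was up for 764 genes (6.56%) and down for 392 (3.36%). Among the opposed genes 472 rose in the lung and fell in the kidney (4.05%), and 705 fell in the lung and rose in the kidney (6.05%). The difference itself passed for all 1177 opposed genes and for 252 of the 1156 that moved together (2.16% of those tested), which left 904 with no difference that passed (7.76%). The remaining differences that passed came from genes that changed in the lung alone (1680, 32.1% of the 5235), in the kidney alone (1879, 35.9%) or in neither organ taken singly (247, 4.72%).

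Large changes were more often shared than opposed. With both changes at 1 log2 unit or more, 416 genes moved together and 244 apart. At 2 units the numbers were 73 and 14, and at 3 units 17 and 0. Genes that rose in both organs had a median change of 1.02 in lung and 1.26 in kidney, and those that fell in both -0.89 and -0.96. Among the opposed genes the medians were 0.84 and -0.97 for those that rose in the lung, and -0.80 and 0.91 for those that fell in the lung.

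**Figure D1:**
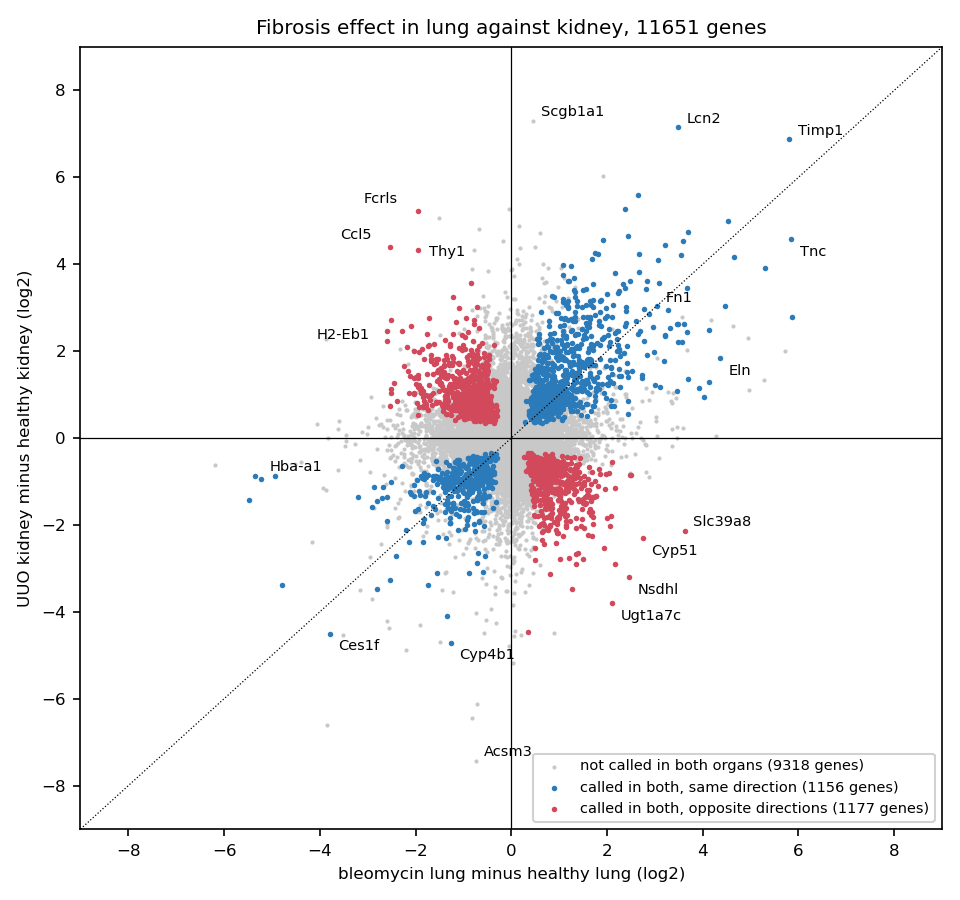
Change of each of the 11651 genes in the lung (x axis, bleomycin minus healthy, log2) against its change in the kidney (y axis, UUO minus healthy, log2). Colours separate the 1156 genes that passed in both organs with the same direction from the 1177 with opposite directions. The largest shared changes lie at the upper right, and no opposed gene reaches 3 log2 units in both organs.

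The number of opposed genes depended in part on the scaling of the arrays. With median scaling in place of quantile normalization, 757 genes were opposed and 1575 moved together, and with the authors' matrix values 1964 were opposed, 1835 of them up in lung. The share of differences that lay higher in lung was 39.8% in the setting reported here, 42.5% with median scaling and 84.2% with the matrix values, where the median difference of all genes moved from -0.17 to 0.73. Over all 5 other settings of background and scaling, 363 of the 1177 opposed genes (236 of the 472 that rose in lung and 127 of the 705 that fell) and 564 of the 1156 shared genes kept their class. No gene opposed here was shared in any of these settings. Without healthy lung 3 and bleomycin lung 1, which held transcripts of other organs, 977 genes were opposed and 794 moved together. Bleomycin lung 3 with its Xist was then also left out, and 850 genes were opposed and 694 moved together.

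**Figure D2:**
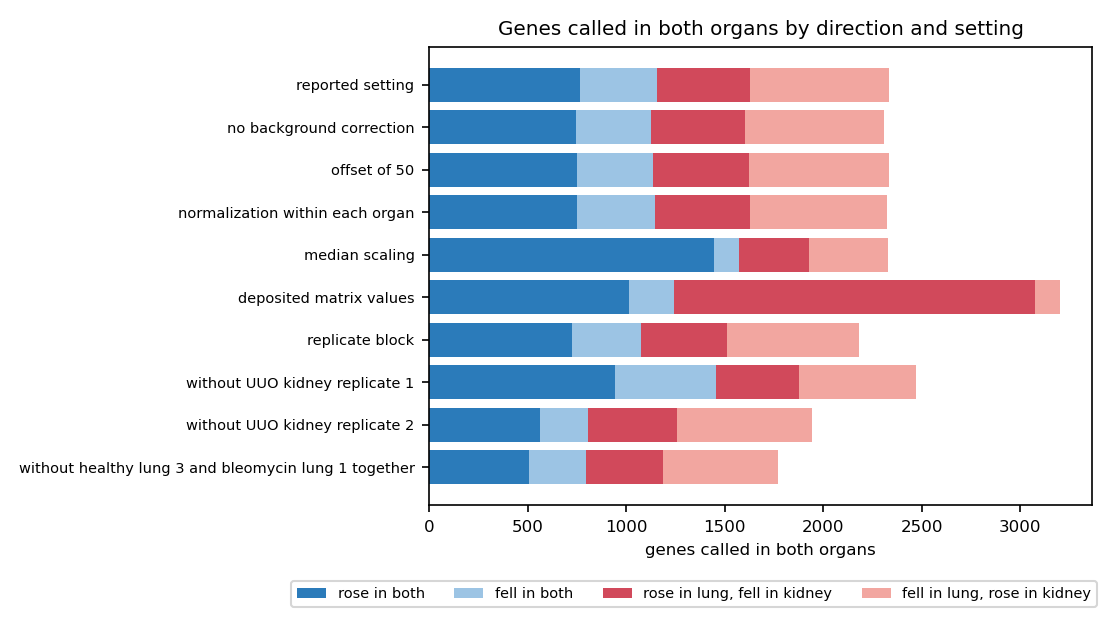
Stacked bars of the number of genes that rose in both organs, fell in both or moved in opposite directions (x axis, genes) under each setting of background, scaling and samples (y axis). Same-direction and opposed genes number 1156 and 1177 in the reported setting, and the deposited matrix values give the most opposed genes of the settings shown.

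Among the gene groups, MHC class II stood for genes that fell in the lung and rose in the kidney. Of 9 measured members 8 fell in lung and 7 rose in kidney, so that 7 were opposed, none moved together, and 8 differences passed. The medians of the group were -1.75 in lung, 2.04 in kidney and -3.92 for the difference, beside -0.04, 0.11 and -0.17 over all genes. H2-Eb1, the beta chain of the surface molecule I-E, was at 11.25, 11.03 and 11.39 in the healthy lungs, 8.52, 8.07 and 9.31 in the bleomycin lungs, 9.23, 9.33 and 9.50 in the healthy kidneys and 12.41 and 11.24 in the UUO kidneys. No bleomycin lung reached any healthy lung, and both UUO kidneys lay above every healthy kidney. Samples of the compared groups failed to overlap in this way for 56.2% of all genes in lung and 63.1% in kidney. The H2-Eb1 change was -2.59 ± 0.32 in lung and 2.47 ± 0.36 in kidney, with a difference of -5.06 ± 0.48, adjusted p = 1.31e-05. H2-DMb1, a chain of the chaperone that loads peptides onto these molecules, was at 9.99, 10.06 and 10.12 in the healthy lungs, 7.44, 6.87 and 8.34 in the bleomycin lungs, 7.21, 6.99 and 7.42 in the healthy kidneys and 10.56 and 9.30 in the UUO kidneys. Its difference was -5.23 ± 0.53, adjusted p = 1.88e-05, with changes of -2.51 ± 0.35 and 2.72 ± 0.39.

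Further members of the group moved the same way, but not all of them. H2-Ab1, the beta chain of I-A, had changes of -2.29 ± 0.26 in lung and 2.46 ± 0.29 in kidney (difference -4.75 ± 0.39, adjusted p = 7.07e-06), and its other probe gave a difference of -3.27 (adjusted p = 0.000109). Cd74, the invariant chain that guards the peptide groove, had -1.87 ± 0.25 and 2.04 ± 0.28 (difference -3.92 ± 0.38, adjusted p = 1.41e-05), with -3.80 and -3.51 at its other probes. Ciita, the coactivator that switches the whole group on, fell in lung (-1.54 ± 0.32, adjusted p = 0.00233) and was at least 3.03-fold higher in UUO than in healthy kidney (adjusted p = 0.00148). H2-Oa passed in lung alone, and H2-Aa (lung adjusted p = 0.624, kidney adjusted p = 0.117) in neither organ, with a probe near background whose kidney change passed without UUO kidney 2 (adjusted p = 0.0236). In all 5 scalings 6 of the 7 opposed members kept that class, and 6 were opposed without healthy lung 3 and bleomycin lung 1. Both UUO kidneys, which hold lung transcripts, remained in that fit.

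Promoters of this group are known for a Y box, the letters CTGATTGG, where the factor NF-Y binds. RefSeq promoters (build GRCm38.p6, 250 bases before to 50 after the gene start) matched 6 of the 9 members, and 3 of the 6 held the letters on either strand (50%, against 4.31% of 27025 promoters). The holders were the opposed H2-Eb1, H2-Oa, which passed in lung alone, and H2-Aa, which passed in neither organ. The opposed H2-DMa, H2-DMb1 and H2-DMb2 did not hold the letters. The promoter of H2-Eb1 lies at chr17:34305617-34305916 on the + strand and is shown because the gene is the opposed surface chain with the larger difference, ahead of H2-Ab1, with the Y box in capitals at -62 from the start. That of H2-Oa, at chr17:34092129-34092428 on the + strand, is shown beside it because the gene fell in lung and did not pass in kidney, and has the same letters at -46.
H2-Eb1: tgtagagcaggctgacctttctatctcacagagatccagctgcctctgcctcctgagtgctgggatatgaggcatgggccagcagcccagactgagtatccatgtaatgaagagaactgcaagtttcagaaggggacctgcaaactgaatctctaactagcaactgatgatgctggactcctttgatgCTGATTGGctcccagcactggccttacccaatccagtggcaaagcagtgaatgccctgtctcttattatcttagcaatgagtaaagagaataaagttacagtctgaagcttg
H2-Oa: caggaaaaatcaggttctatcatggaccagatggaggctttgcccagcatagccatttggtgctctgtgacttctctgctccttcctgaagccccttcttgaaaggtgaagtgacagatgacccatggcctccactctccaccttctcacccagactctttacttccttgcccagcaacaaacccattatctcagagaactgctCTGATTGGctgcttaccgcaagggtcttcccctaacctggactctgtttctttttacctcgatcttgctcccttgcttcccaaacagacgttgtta

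**Figure D3:**
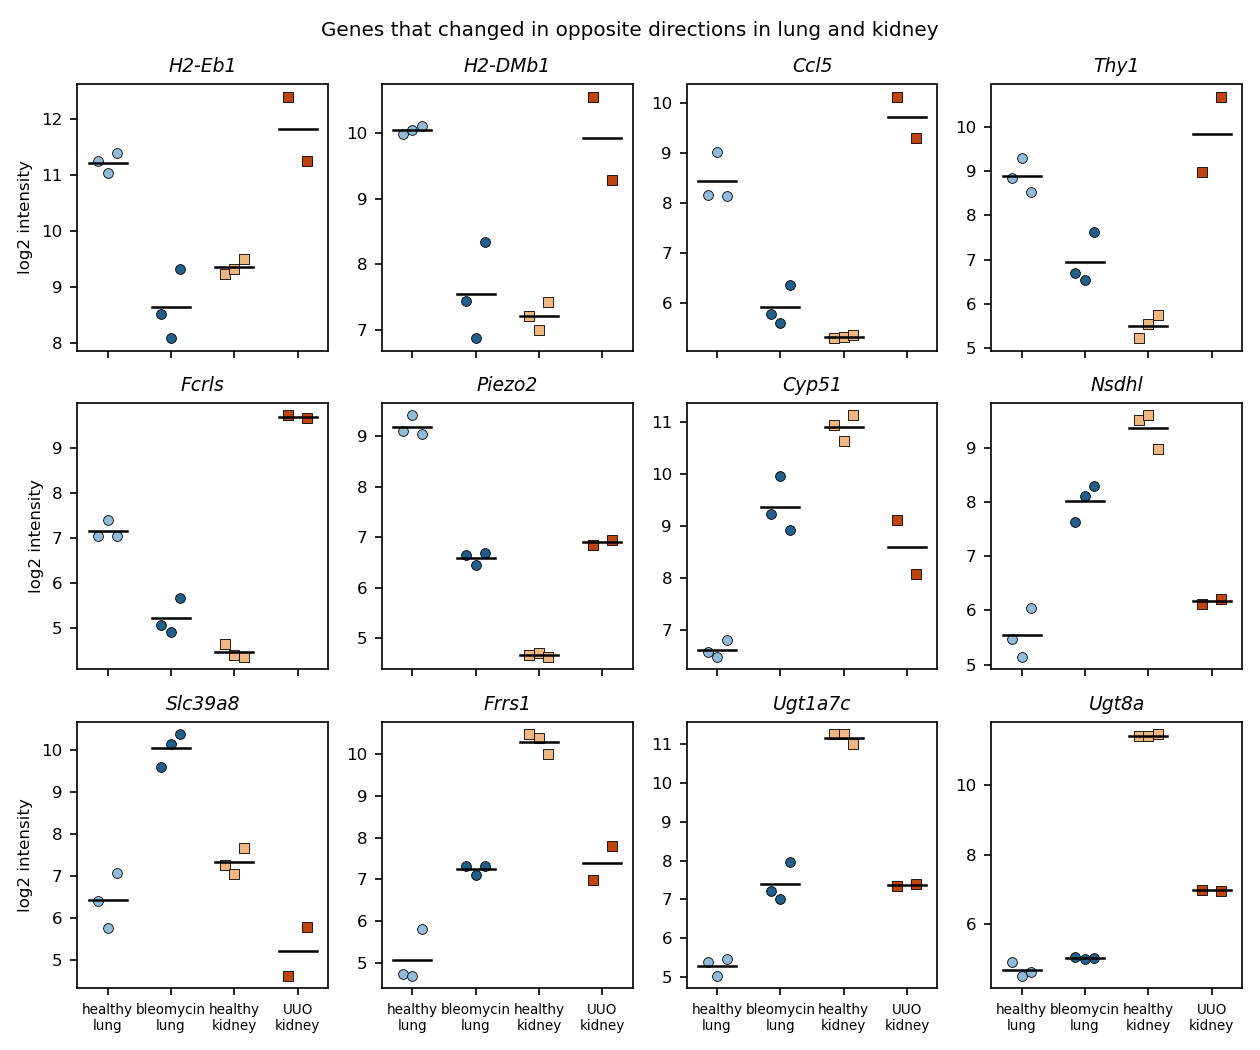
Log2 intensity of 12 opposed genes (one panel each, y axis) in every sample of the 4 groups (x axis), with bars at the group means. In each panel the lung groups and the kidney groups are ordered in opposite ways, as for H2-Eb1 with 11.25, 11.03 and 11.39 in healthy lung and 12.41 and 11.24 in UUO kidney.

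Lymphocyte genes shared this pattern in part. Of 10 T and NK cell genes 8 fell in the lung and 5 rose in the kidney, all 5 of them opposed, with medians of -1.74, 0.49 and -2.37 for lung, kidney and difference. Cd3e, a subunit of the T cell receptor complex, fell in lung (-2.04 ± 0.20, adjusted p = 2.1e-05) and was at least 1.19-fold higher in UUO kidney (adjusted p = 0.00252). Prf1, the pore-forming protein of killer cells, had -1.95 ± 0.15 and 0.54 ± 0.17, and its kidney change no longer passed without UUO kidney 1 (0.51) or UUO kidney 2 (0.56). Without UUO kidney 1, 2 of the 10 genes were opposed, and with the matrix values also 2. All 6 B and plasma cell genes fell in the lung, while 1 rose and 1 fell in the kidney. Fcmr, the receptor for IgM, was the riser there (-2.51 ± 0.21, adjusted p = 9.69e-06 in lung, at least 1.64-fold higher in UUO kidney, adjusted p = 0.00231).

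Ccl5, a chemokine that attracts T cells and monocytes, was opposed by more than 6 log2 units. It was at 8.16, 9.03 and 8.13 in the healthy lungs, 5.78, 5.60 and 6.35 in the bleomycin lungs, 5.29, 5.31 and 5.36 in the healthy kidneys and 10.13 and 9.31 in the UUO kidneys. Every injured lung lay below every healthy lung and both UUO kidneys lay above every kidney control, with changes of -2.53 ± 0.28 and 4.40 ± 0.31 and a difference of -6.93 ± 0.42, adjusted p = 8.17e-07. Cx3cl1, the membrane-bound chemokine fractalkine, moved the same way (-1.99 ± 0.18 and 1.25 ± 0.20, difference -3.24 ± 0.27, adjusted p = 7.48e-06). Thy1, a surface glycoprotein of T cells and some fibroblasts, was at 8.84, 9.29 and 8.54 in the healthy lungs, 6.70, 6.53 and 7.62 in the bleomycin lungs, 5.22, 5.54 and 5.75 in the healthy kidneys and 8.97 and 10.68 in the UUO kidneys. The 2 UUO kidneys lay further apart than the samples of any other group of these 4, and the difference was -6.27 ± 0.60, adjusted p = 1.37e-05.

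Fcrls, an Fc receptor-like molecule of tissue macrophages, was at 7.05, 7.4 and 7.04 in the healthy lungs, 5.06, 4.92 and 5.66 in the bleomycin lungs, 4.65, 4.41 and 4.35 in the healthy kidneys and 9.72 and 9.66 in the UUO kidneys. Its probe was at background in every healthy kidney, so the kidney change was at least 22-fold (adjusted p = 1.99e-07) beside a fall in lung (-1.95 ± 0.25, adjusted p = 0.000104), and the difference was at least 85.1-fold (adjusted p = 3.24e-07). Piezo2, a stretch-activated ion channel, was at 9.10, 9.42 and 9.06 in the healthy lungs, 6.64, 6.45 and 6.68 in the bleomycin lungs, 4.67, 4.72 and 4.62 in the healthy kidneys and 6.86 and 6.94 in the UUO kidneys. It fell in lung (-2.60 ± 0.16, adjusted p = 1.3e-06), was at least 3.19-fold higher in UUO kidney (adjusted p = 3.09e-06), and both lung groups and both kidney groups were apart. These 5 genes, Ccl5, Cx3cl1, Thy1, Fcrls and Piezo2, kept their class in every setting tried.

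Interferon response genes differed mainly through the kidney. Of 16 members 13 rose in the UUO kidney, none rose and 3 fell in the lung, and 15 differences passed, all of them higher in kidney (medians -0.33, 1.74 and -2.04). With the matrix values 5 members rose in lung, and 8 differences passed. Irf1, a transcription factor induced by interferon gamma, was the opposed member (-1.08 ± 0.18 in lung and 1.38 ± 0.20 in kidney, difference -2.46 ± 0.27, adjusted p = 3.36e-05), but of its other 4 probes 1 gave a passing -2.51 and 3 gave 0.09, -0.84 and -0.71, which did not pass. Gbp3, a guanylate-binding protein, was at 6.84, 6.98 and 7.58 in the healthy and 9.43 and 10.82 in the UUO kidneys and at 9.11, 8.95 and 9.48 in the healthy and 8.55, 8.89 and 8.42 in the bleomycin lungs. The kidney groups were apart, the lung change did not pass (-0.56 ± 0.31, adjusted p = 0.172), and the difference was -3.55 ± 0.47, adjusted p = 0.000115. Irf7, the regulator of type I interferon genes, was at least 3.94-fold higher in UUO kidney (adjusted p = 1.33e-06), with no passing change in lung (0.24 ± 0.16, adjusted p = 0.254).

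Endothelial genes were lower in the injured lung and higher in the injured kidney. Of 22 pan-endothelial genes 15 fell and none rose in the lung, 12 rose and 1 fell in the kidney, 9 were opposed and none moved together. The medians were -0.86, 0.64 and -1.38, and all 17 differences that passed lay higher in kidney. With median scaling 8 and with the matrix values 5 members were opposed, and 7 without UUO kidney 1 or without UUO kidney 2. Cdh5, the cadherin of endothelial junctions, was at 11.77, 11.54 and 11.51 in the healthy lungs, 10.52, 10.91 and 10.33 in the bleomycin lungs, 6.62, 6.53 and 6.76 in the healthy kidneys and 7.46 and 8.16 in the UUO kidneys. Samples of the compared groups did not overlap in either organ, with changes of -1.02 ± 0.19 and 1.18 ± 0.21 and a difference of -2.20 ± 0.29, adjusted p = 9.74e-05. Its lung change was -0.44 and did not pass with the matrix values, and its other probe gave a difference of -1.30 (adjusted p = 0.00472).

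Aplnr, the apelin receptor of sprouting vessels, had the largest difference of the 22 and kept its class in every setting. It was at 8.99, 8.37 and 8.87 in the healthy lungs, 6.33, 6.70 and 7.09 in the bleomycin lungs, 6.24, 6.27 and 6.61 in the healthy kidneys and 8.22 and 8.55 in the UUO kidneys. The changes were -2.04 ± 0.22 in lung and 2.01 ± 0.24 in kidney, nearly equal in size, with a difference of -4.05 ± 0.32, adjusted p = 5.41e-06. Eng, a TGF-beta coreceptor of endothelium, had -1.39 ± 0.13 and 0.97 ± 0.15 (difference -2.36 ± 0.20, adjusted p = 8.06e-06). Egfl7, a secreted endothelial factor, had -1.11 ± 0.14 and 0.98 ± 0.16, although 1 of its other 2 probes gave a difference of -0.36 that did not pass. Ramp2, which partners the adrenomedullin receptor, had -1.14 ± 0.16 and 1.05 ± 0.17. Pecam1, the CD31 adhesion molecule, passed in kidney (0.72 ± 0.21, adjusted p = 0.015) and not in lung (-0.32 ± 0.19, adjusted p = 0.185), and its difference of -1.05 ± 0.28 (adjusted p = 0.00975) did not pass with the matrix values. The kidney change was also lost without UUO kidney 2 (0.56, adjusted p = 0.125). Its other 2 probes had larger lung changes, -1.98 and -1.39, and differences of -2.03 and -2.06 (adjusted p = 0.000111 and 1.46e-05). Thbd, the anticoagulant thrombomodulin of vessel walls, was opposed as well (-1.60 ± 0.27 and 2.16 ± 0.31, difference -3.76 ± 0.41, adjusted p = 3.26e-05).

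Genes that rose in the lung and fell in the kidney included the enzymes of cholesterol synthesis. Of 13 members 7 rose and 1 fell in the lung, 3 rose and 6 fell in the kidney, 5 were opposed and 9 of the 10 differences that passed lay higher in lung. The medians were 1.43, -0.77 and 1.30. Nsdhl, an enzyme that removes methyl groups from sterols, was at 5.46, 5.13 and 6.04 in the healthy lungs, 7.64, 8.11 and 8.29 in the bleomycin lungs, 9.52, 9.60 and 8.98 in the healthy kidneys and 6.13 and 6.21 in the UUO kidneys. Every bleomycin lung exceeded every healthy lung and both UUO kidneys lay under every healthy kidney, with changes of 2.47 ± 0.26 and -3.20 ± 0.29 and a difference of 5.67 ± 0.39, adjusted p = 2.02e-06. Cyp51, the lanosterol demethylase, was at 6.58, 6.48 and 6.80 in the healthy lungs, 9.23, 9.97 and 8.93 in the bleomycin lungs, 10.94, 10.63 and 11.13 in the healthy kidneys and 9.11 and 8.08 in the UUO kidneys. Its groups were apart in both organs, and the difference was 5.06 ± 0.45, adjusted p = 9.71e-06.

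Further up the same pathway, Mvd, which makes the isoprene unit, had 1.49 ± 0.25 in lung and -1.41 ± 0.28 in kidney (difference 2.90 ± 0.38, adjusted p = 9.74e-05). Lss, which closes the sterol rings, had 1.69 ± 0.23 and -0.77 ± 0.26 (adjusted p = 0.0286 in kidney), and its kidney change did not pass under median scaling (-0.42) or without either UUO kidney. The other Lss probe had -0.09 in lung and -0.81 in kidney, with a difference of 0.72 (adjusted p = 0.037), so the opposed class holds for the reported probe and not for that one. Sqle, the squalene epoxidase, rose in lung (1.63 ± 0.22, adjusted p = 0.000159) and did not pass in kidney (-0.12 ± 0.25, adjusted p = 0.74). The other Sqle probe had 2.69 in lung and -1.87 in kidney, with a difference of 4.56 (adjusted p = 2.92e-06). Sc5d, a late desaturase, ran the other way, lower in bleomycin lung (-0.67 ± 0.12, adjusted p = 0.000977) and at least 1.03-fold higher in UUO kidney (adjusted p = 0.0017), and passed in neither organ with the matrix values. Over all 5 scalings 3 members stayed opposed and 8 kept their difference.

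A sterol element, searched as TCACNCCAC on both strands, was found in none of the 11 matched promoters of this group and in 1.22% of all promoters. With matches so rare, finding none in 11 promoters does not show that the element is absent, and near variants were not searched. The Y box letters named above for MHC class II were found in 4 of the 11 (36.4%), those of Mvk, Idi1, Lss and Sc5d. The promoter of Lss, at chr10:76531355-76531654 on the + strand, is shown because the gene, at the reported probe, moved opposite to H2-Eb1 and holds the same letters, in capitals, at -65.
Lss: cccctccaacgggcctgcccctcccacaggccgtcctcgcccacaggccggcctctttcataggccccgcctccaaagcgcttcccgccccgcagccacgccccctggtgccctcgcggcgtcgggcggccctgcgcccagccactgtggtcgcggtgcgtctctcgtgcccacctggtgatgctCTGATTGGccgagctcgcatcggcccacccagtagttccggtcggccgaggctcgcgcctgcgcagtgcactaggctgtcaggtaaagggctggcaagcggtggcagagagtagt
The Sc5d promoter holds them too, and that gene moved opposite to Lss at the reported probes.

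Ugt1a7c had the largest positive difference of the named opposed genes. Ugt1a7c, one of the enzymes that attach glucuronic acid to drugs and bilirubin, was at 5.38, 5.02 and 5.45 in the healthy lungs, 7.22, 7.01 and 7.98 in the bleomycin lungs, 11.25, 11.26 and 10.99 in the healthy kidneys and 7.35 and 7.4 in the UUO kidneys. The healthy kidneys lay far above the healthy lungs at this probe, the injured organs lay together, and the difference was 5.91 ± 0.36, adjusted p = 8.17e-07. The mouse Ugt1a genes share their last exons, and whether this probe lies in them was not tested. Slc39a8, a zinc and manganese importer, was at 6.4, 5.77 and 7.07 in the healthy lungs, 9.59, 10.15 and 10.37 in the bleomycin lungs, 7.26, 7.04 and 7.66 in the healthy kidneys and 4.60 and 5.79 in the UUO kidneys, with a difference of 5.75 ± 0.62, adjusted p = 3.17e-05. Frrs1, a ferric reductase, had changes of 2.17 ± 0.29 and -2.90 ± 0.32 (difference 5.07 ± 0.43, adjusted p = 8.11e-06). For these 3 genes the groups did not overlap in either organ, and the class held in every setting.

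Ugt8a, which makes galactosylceramide, was at 4.92, 4.49 and 4.63 in the healthy lungs, 5.04, 5.0 and 5.03 in the bleomycin lungs, 11.41, 11.41 and 11.47 in the healthy kidneys and 6.99 and 6.94 in the UUO kidneys. Here the fall in kidney was large (-4.47 ± 0.14, adjusted p = 4.09e-09), and the rise in lung was of at least 1.08-fold (adjusted p = 0.0368). That rise did not pass without background correction (0.13), with an offset of 50 (0.16) or without healthy lung 2, healthy lung 3 or any 1 of the bleomycin lungs (0.25 to 0.36). Nqo1, a quinone reductase of the NRF2 response, had 0.85 ± 0.20 and -1.72 ± 0.23 (difference 2.57 ± 0.30, adjusted p = 5.49e-05). The glutathione transferase Gsta1, of the same group, had -0.91 ± 0.27 and 1.67 ± 0.31, but its other 2 probes had lung changes of 0.52 and 0.22 and differences of -0.28 and -1.04 that did not pass. Gsta4 had -0.77 ± 0.25 and 1.08 ± 0.28, and its kidney change was lost without UUO kidney 1 (0.76, adjusted p = 0.0933). Calr, the chaperone calreticulin, rose in lung (1.68 ± 0.22) and fell in kidney (-2.26 ± 0.25, difference 3.94 ± 0.33, adjusted p = 7.8e-06). Cav2, a caveolar protein of alveolar type 1 cells, followed it (1.71 ± 0.33 and -1.83 ± 0.37, difference 3.54 ± 0.50, adjusted p = 0.000178). It did not stand for its list. Of 14 alveolar type 1 genes 1 rose and 4 fell in lung, and 6 rose and 4 fell in kidney (medians -0.41, 0.51 and -1.05). Of their 9 passing differences 7 lay higher in kidney, and 2 members fell in lung and rose in kidney.

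Basement membrane genes held both patterns. Of 16 chains 10 rose and 1 fell in lung, and 11 rose and 3 fell in kidney. The 6 that moved together, Col4a1, Col4a2, Lama5, Lamb1, Lamc1 and Nid1, all rose more in kidney, and the 3 opposed ones, Col4a3, Col4a4 and Lama1, rose in lung and fell in kidney. Col4a1, a chain of the ubiquitous type IV collagen, was at 12.51, 12.34 and 12.64 in the healthy lungs, 13.87, 13.82 and 13.81 in the bleomycin lungs, 10.61, 10.51 and 10.73 in the healthy kidneys and 13.27 and 13.78 in the UUO kidneys. The groups were apart in both organs, and the kidney change was the larger (2.91 ± 0.20 against 1.34 ± 0.18, difference -1.57 ± 0.27, adjusted p = 0.000685), although the difference did not pass with the matrix values. Col4a4, a chain of the special network of glomerular and alveolar basement membranes, was at 8.95, 8.84 and 9.11 in the healthy lungs, 9.59, 9.53 and 9.86 in the bleomycin lungs, 10.13, 10.15 and 10.33 in the healthy kidneys and 9.13 and 9.22 in the UUO kidneys. It rose in lung (0.69 ± 0.13, adjusted p = 0.00143) and fell in kidney (-1.03 ± 0.15, adjusted p = 0.000181). Of its other 2 probes 1 gave a difference of 1.36 (adjusted p = 0.0112) and 1 gave 0.17, which did not pass. Its partner Col4a3 had 0.73 ± 0.25 and -1.53 ± 0.28, and its lung change did not pass without healthy lung 2 (0.40), bleomycin lung 2 (0.75) or bleomycin lung 3 (0.62).

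Matrix genes rose in both organs in part. Of 26 fibrillar collagens and collagen-processing genes 14 rose and 1 fell in lung and 20 rose and none fell in kidney. In all 12 rose in both, none was opposed, and the medians were 0.68, 1.53 and -0.96. Col1a1, the more abundant chain of type I collagen, was at 7.93, 7.98 and 7.88 in the healthy lungs, 11.32, 10.21 and 11.45 in the bleomycin lungs, 4.71, 4.57 and 6.0 in the healthy kidneys and 8.85 and 9.55 in the UUO kidneys. All injured samples lay above all healthy ones in both organs, and the changes of 3.07 ± 0.39 and 4.11 ± 0.44 differed by -1.04 ± 0.59 (adjusted p = 0.169, 95% interval -2.32 to 0.24). Without healthy kidney 3, which had the highest kidney control level, the difference was -1.50 (adjusted p = 0.0289). Col5a1, a minor fibril chain, had 2.61 ± 0.26 and 2.70 ± 0.29 (difference -0.09 ± 0.39, adjusted p = 0.87, interval -0.94 to 0.76). Lox, which cross-links collagen, rose in lung (3.70 ± 0.41, adjusted p = 4.66e-05) and was at least 16.6-fold higher in UUO kidney (adjusted p = 1.07e-05), and its difference passed in favour of kidney without UUO kidney 1 (-1.72, adjusted p = 0.0435).

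Some matrix genes rose unequally. Col3a1, the chain of type III collagen, rose in lung (2.24 ± 0.23, adjusted p = 3.05e-05) and was at least 7.42-fold higher in UUO kidney (adjusted p = 2.06e-06). Its difference passed in favour of kidney (adjusted p = 0.018), but its other probe had changes of 2.49 and 0.84 and a difference of 1.64 the other way (adjusted p = 0.0358). At the reported probe the difference did not pass without background correction (-0.09), with the matrix values (-0.32) or without UUO kidney 2 (-0.79). Sparc, a collagen-binding protein, rose by 0.59 ± 0.15 and 2.39 ± 0.17 (difference -1.80 ± 0.23, adjusted p = 8.17e-05), and its other 2 probes gave -1.75, which passed, and -0.10, which did not. Col16a1, which sits on fibril surfaces, was at 10.12, 10.14 and 10.05 in the healthy and 10.68, 10.06 and 10.83 in the bleomycin lungs and at 7.08, 6.91 and 7.41 in the healthy and 9.88 and 9.84 in the UUO kidneys. Only the kidney change passed (2.73 ± 0.22, adjusted p = 3.28e-06), although the lung change passed with median scaling (0.75) and with the matrix values (0.94), and the difference was -2.31 ± 0.30, adjusted p = 9.53e-05. Col5a2 rose in lung (3.01 ± 0.18, adjusted p = 1.1e-06) and was at least 1.34-fold higher in UUO kidney (adjusted p = 0.000414), with a difference in favour of lung (adjusted p = 0.000246).

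Fn1, fibronectin, was at 9.13, 9.16 and 9.91 in the healthy lungs, 12.70, 11.89 and 12.74 in the bleomycin lungs, 6.56, 6.56 and 6.79 in the healthy kidneys and 9.23 and 10.12 in the UUO kidneys. The rises were nearly the same in size, 3.05 ± 0.35 and 3.03 ± 0.39, with a difference of 0.01 ± 0.52, adjusted p = 0.988 (95% interval -1.12 to 1.14). The other 2 Fn1 probes had larger changes in lung than in kidney, with differences of 1.87 and 1.77 (adjusted p = 0.000233 and 0.000242), so equality does not hold over the gene's probes. Acta2, the smooth muscle actin of myofibroblasts, was at 13.44, 13.29 and 12.29 in the healthy lungs, 13.50, 13.43 and 13.77 in the bleomycin lungs, 10.16, 9.47 and 10.61 in the healthy kidneys and 11.98 and 12.53 in the UUO kidneys. The lung samples overlapped (0.55 ± 0.39, adjusted p = 0.269), the kidney groups did not (2.17 ± 0.43, adjusted p = 0.00165), and the difference of -1.62 ± 0.58 (adjusted p = 0.0388) was lost without UUO kidney 2 (-1.34, adjusted p = 0.136), with the matrix values (-0.74) and without 6 other samples, each left out in turn. Its other 3 probes had lung changes of 1.75, 1.98 and 1.63 and kidney changes of 0.82, 0.84 and 2.53. Their differences were 0.93, 1.15 and -0.90, none of which passed. The small lung change thus holds for the reported probe and not for those.

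Among 19 matrix glycoproteins and proteoglycans 11 rose and 1 fell in lung, 15 rose in kidney, 8 rose in both and 1 was opposed (medians 0.97, 1.83 and -0.78). Tnc, tenascin C, a protein of healing wounds, was at 5.76, 5.72 and 6.11 in the healthy lungs, 11.74, 11.65 and 11.75 in the bleomycin lungs, 4.73, 4.36 and 6.51 in the healthy kidneys and 8.19 and 11.37 in the UUO kidneys. All bleomycin lungs lay close together, while UUO kidneys 1 and 2 were more than 3 log2 units apart. The changes were 5.85 ± 0.67 and 4.58 ± 0.74, the difference did not pass (1.27 ± 1.00, adjusted p = 0.325), and without UUO kidney 2 it was 2.86 (adjusted p = 0.00947). Of its other 4 probes 2 gave passing differences in favour of lung, 2.23 and 1.19 (adjusted p = 0.00642 and 0.0467). Thbs2, an antiangiogenic thrombospondin, rose in both (2.49 ± 0.29 and 3.61 ± 0.33, difference -1.12 ± 0.44, adjusted p = 0.0542), and its difference passed in favour of kidney without healthy lung 3 (-1.44, adjusted p = 0.00882). Its relative Thbs1 rose in lung (3.35 ± 0.27, adjusted p = 6.15e-06) and did not pass in kidney (adjusted p = 0.641), and Vcan, the proteoglycan versican, was at least 3.57-fold higher in bleomycin lung (adjusted p = 1.82e-07) and did not pass in kidney (adjusted p = 0.988). Fbln1, fibulin 1, was the opposed member (-1.34 ± 0.31 and 1.83 ± 0.35, difference -3.17 ± 0.47, adjusted p = 0.000244), with a lung change of -0.76 that did not pass with the matrix values.

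Proteases and their inhibitors rose together in 9 of 20 cases, with 12 rises and 1 fall in lung, 14 rises in kidney and 1 opposed gene (medians 1.29, 1.36 and -0.22). Timp1, an inhibitor of metalloproteinases, was at 7.35, 8.02 and 7.0 in the healthy lungs, 12.72, 13.48 and 13.59 in the bleomycin lungs, 4.31, 4.42 and 4.99 in the healthy kidneys and 9.35 and 13.57 in the UUO kidneys. Every injured sample lay above every healthy one, but the UUO kidneys were far apart. It rose in lung (5.81 ± 0.77, adjusted p = 0.000135) and was at least 75.1-fold higher in UUO kidney (adjusted p = 6.57e-05). No difference passed (adjusted p = 0.479), whereas without UUO kidney 1 the fit gave -3.19 (adjusted p = 0.00164) and without UUO kidney 2 1.03 (adjusted p = 0.191). Adamts4, which cuts proteoglycans, was at 4.49, 4.74 and 4.51 in the healthy lungs, 8.68, 9.27 and 9.35 in the bleomycin lungs, 4.91, 4.48 and 4.33 in the healthy kidneys and 7.65 and 11.48 in the UUO kidneys. It was at least 18.1-fold and 20.2-fold higher in injured lung and kidney (adjusted p = 0.000299 and adjusted p = 0.000275), and its difference passed for lung without UUO kidney 2 (1.44, adjusted p = 0.0243) and for kidney without UUO kidney 1 (-2.39, adjusted p = 0.00164). Mmp2, gelatinase A, rose more in kidney (1.19 ± 0.18 and 3.16 ± 0.20, difference -1.97 ± 0.27, adjusted p = 0.000133), and Mmp10, stromelysin 2, rose at least 11.2-fold in lung and 1.25-fold in kidney (adjusted p = 1.83e-06 and adjusted p = 0.00658). The Mmp10 kidney change was lost without UUO kidney 2 (0.58, adjusted p = 0.103). Timp2 was opposed (-0.53 ± 0.18 and 1.36 ± 0.20), but its lung change did not pass with median scaling (-0.06), with the matrix values (0.12) or without any 1 of the healthy lungs.

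**Figure D4:**
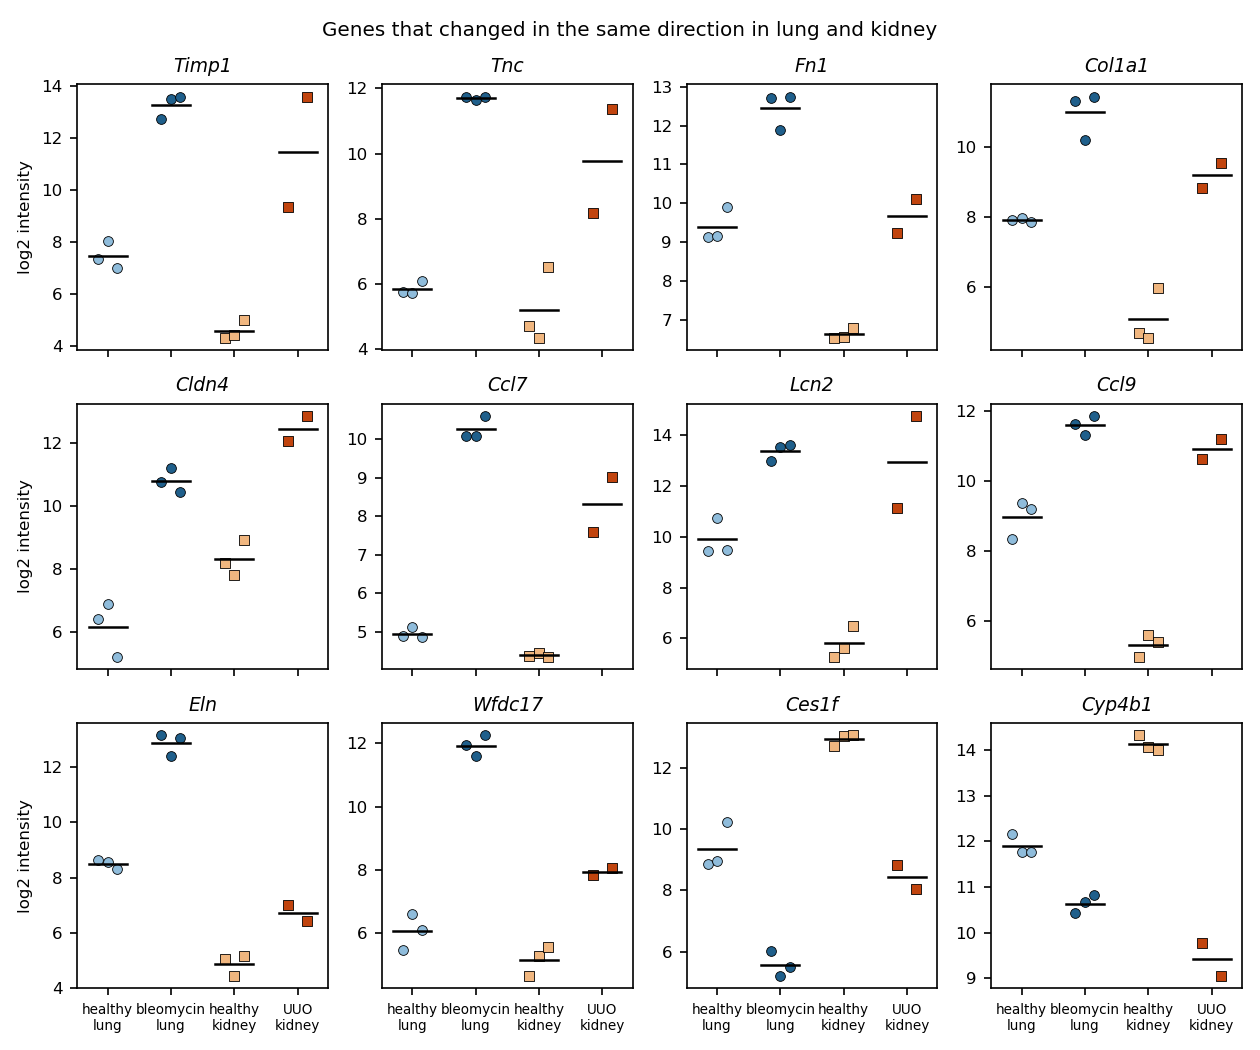
Log2 intensity of genes that moved in the same direction in both organs (one panel each, y axis) in every sample of the 4 groups (x axis), with bars at the group means. Injured samples lie on the same side of the healthy ones in both organs, and the 2 UUO kidneys stand apart from each other for Timp1 (9.35 and 13.57) and Tnc (8.19 and 11.37).

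Macrophage genes rose in both organs. Of 25 members 20 rose in lung and 20 in kidney, none fell, 15 rose in both, and 14 of these did so in all 5 other scalings (medians 1.72, 2.50 and -0.43). C1qc, a chain of the complement starter C1q made by macrophages, was at 7.91, 8.71 and 8.56 in the healthy lungs, 11.24, 10.83 and 11.40 in the bleomycin lungs, 7.12, 7.28 and 7.16 in the healthy kidneys and 10.01 and 10.31 in the UUO kidneys. No groups overlapped, and the changes of 2.77 ± 0.28 and 2.98 ± 0.31 differed by -0.21 ± 0.41 (adjusted p = 0.711, interval -1.11 to 0.69). Trem2, a lipid receptor of macrophages in scars, rose in lung (3.45 ± 0.28, adjusted p = 7.81e-06) and was at least 3.48-fold higher in UUO kidney (adjusted p = 4.73e-05). Its difference did not pass (adjusted p = 0.135), but passed in favour of lung without background correction (1.21) and with the matrix values (1.37). Mrc1, the mannose receptor, rose more in kidney (2.24 ± 0.18 and 3.35 ± 0.20, difference -1.11 ± 0.27, adjusted p = 0.00582), a difference that did not pass without background correction (-0.21) or with the matrix values (-0.39). Marco, a scavenger receptor of alveolar macrophages, and Itgam, the integrin CD11b, rose in lung alone.

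Fcgr2b, the inhibitory Fc receptor, was among the largest rises that passed in lung alone with a probe above background in all samples compared. It was at 6.61, 7.05 and 6.72 in the healthy lungs, 10.09, 10.22 and 10.80 in the bleomycin lungs, 9.28, 9.05 and 8.93 in the healthy kidneys and 9.27 and 9.38 in the UUO kidneys. The bleomycin lungs were all above the healthy lungs and the kidney groups lay within 0.5 log2 units of each other, with changes of 3.58 ± 0.38 and 0.24 ± 0.42 and a difference of 3.34 ± 0.56, adjusted p = 0.000561. Wfdc17, a secreted WAP-domain protein, rose in both, and more in lung (5.87 ± 0.56 and 2.77 ± 0.62, difference 3.10 ± 0.83, adjusted p = 0.0097). Neutrophil genes rose in lung in 4 of 13 cases and in kidney in 1, none in both, while the medians were nearly alike, 1.51 in lung and 1.62 in kidney. Among all genes 21.3% rose in lung and 26% in kidney. The UUO kidneys differed, with 4 and 10 members above background and summed levels of 8.90 and 12.96. Stfa2, a cysteine protease inhibitor of neutrophils, rose in lung (5.27 ± 0.65, adjusted p = 8.64e-05), and its kidney change did not pass (adjusted p = 0.162).

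Chemokine genes rose together in 10 of 23 cases, with 13 rises and 3 falls in lung, 15 rises and 1 fall in kidney, and 2 opposed genes, Ccl5 and Cx3cl1. Ccl7, which recruits monocytes, was at 4.90, 5.12 and 4.86 in the healthy lungs, 10.08, 10.09 and 10.60 in the bleomycin lungs, 4.38, 4.46 and 4.35 in the healthy kidneys and 7.61 and 9.03 in the UUO kidneys. It rose in lung (5.30 ± 0.42, adjusted p = 6.26e-06), was at least 8.51-fold higher in UUO kidney (adjusted p = 4.76e-05), and its difference did not pass (adjusted p = 0.0953), but passed in favour of lung with median scaling (1.57), with the matrix values (2.30) and without UUO kidney 2 (2.09). Ccl12 rose in lung (3.55 ± 0.33, adjusted p = 1.87e-05) and was at least 11.5-fold higher in UUO kidney (adjusted p = 5.41e-06). Ccl9 rose more in kidney (2.64 ± 0.44 and 5.59 ± 0.49, difference -2.95 ± 0.66, adjusted p = 0.00336), as did the neutrophil attractant Cxcl1 (2.44 ± 0.42 and 4.66 ± 0.47, difference -2.22 ± 0.63, adjusted p = 0.0133), whose difference was lost without UUO kidney 2 (-1.45, adjusted p = 0.0769). Ccl2, the main monocyte chemokine, was at least 13.1-fold higher in bleomycin lung and 3.2-fold higher in UUO kidney (adjusted p = 1.82e-07 and adjusted p = 3.93e-06), and its difference passed in favour of lung (adjusted p = 0.000624).

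Cell cycle genes rose in both organs. Of 23 members 15 rose and 1 fell in lung, 14 rose in kidney and 13 rose in both, while 5 differences passed (medians 0.98, 1.11 and -0.05). Cdk1, the kinase of mitotic entry, was at 5.33, 5.31 and 5.39 in the healthy lungs, 8.34, 8.60 and 8.71 in the bleomycin lungs, 5.14, 5.96 and 4.55 in the healthy kidneys and 7.02 and 8.17 in the UUO kidneys. No groups overlapped in either organ, and the changes were 3.20 ± 0.32 and 2.38 ± 0.36 (difference 0.83 ± 0.49, adjusted p = 0.187), with a difference of 1.40 (adjusted p = 0.034) without UUO kidney 2. Top2a, the topoisomerase of dividing cells, had 2.22 ± 0.28 and 2.00 ± 0.31, and Birc5, survivin, 2.23 ± 0.30 and 2.45 ± 0.34, with no passing difference in either gene in the reported setting. Tyms, which makes thymidine nucleotides, rose in lung (2.22 ± 0.23) and did not pass in kidney (-0.05 ± 0.26), and its other probe gave a difference of 0.59 that did not pass. Tk1, thymidine kinase, had 2.05 ± 0.23 and 0.43 ± 0.25, and its other probe 0.07 and 0.68. With the matrix values the group's median difference was 1.09 and 11 members lay higher in lung, against 2 in the reported setting.

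Epithelial injury genes and keratins also rose in both organs, and more in kidney. Of 24 members 15 rose and 1 fell in lung, 23 rose in kidney, 15 rose in both, and all 14 differences that passed lay higher in kidney (medians 1.05, 2.40 and -1.45). Lcn2, a siderophore-binding protein secreted by stressed epithelium, was at 9.45, 10.75 and 9.48 in the healthy lungs, 12.98, 13.54 and 13.63 in the bleomycin lungs, 5.27, 5.63 and 6.5 in the healthy kidneys and 11.13 and 14.76 in the UUO kidneys. All injured samples exceeded all healthy ones, with changes of 3.49 ± 0.73 and 7.15 ± 0.82, and the difference of -3.66 ± 1.09 (adjusted p = 0.0168) was lost without UUO kidney 2 (-1.84, adjusted p = 0.0682) and without background correction (-2.43). Krt18, a keratin of simple epithelia, had 1.32 ± 0.28 and 3.69 ± 0.32 (difference -2.38 ± 0.42, adjusted p = 0.000795). Cd44, a hyaluronan receptor, had 1.69 ± 0.26 and 4.11 ± 0.29 (difference -2.42 ± 0.39, adjusted p = 0.000412), but 3 of its other 4 probes gave differences of 0.58, 0.45 and 0.03 that did not pass.

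Within the same group, several genes rose in kidney with no passing rise in lung. Sox9, a transcription factor of regenerating tubules, was at 6.36, 7.05 and 6.30 in the healthy lungs, 7.23, 6.49 and 7.51 in the bleomycin lungs, 6.02, 5.67 and 5.76 in the healthy kidneys and 9.48 and 10.95 in the UUO kidneys. Kidney groups were apart and lung groups overlapped (0.51 ± 0.40, adjusted p = 0.328), with a kidney change of 4.40 ± 0.45 and a difference of -3.89 ± 0.60, adjusted p = 0.000304. Vcam1, an adhesion molecule of injured tubules and vessels, had 0.16 ± 0.15 and 4.0 ± 0.17 (difference -3.84 ± 0.23, adjusted p = 8.17e-07). Krt20 was at background in all lungs and at least 23.1-fold higher in UUO kidney (adjusted p = 1.3e-05). Sox4, a related factor, was opposed (-0.83 ± 0.22 and 3.58 ± 0.25, difference -4.41 ± 0.33, adjusted p = 3.54e-06), although its lung change did not pass under median scaling (-0.46) or with the matrix values (-0.26).

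Ces1f and Cyp2e1 were among the largest shared falls. Ces1f, a carboxylesterase, was at 8.85, 8.97 and 10.24 in the healthy lungs, 6.01, 5.20 and 5.50 in the bleomycin lungs, 12.70, 13.03 and 13.06 in the healthy kidneys and 8.81 and 8.05 in the UUO kidneys. It fell in lung (-3.79 ± 0.41, adjusted p = 4.07e-05) and in kidney (-4.50 ± 0.46, adjusted p = 1.54e-05) with no passing difference (0.71 ± 0.61, adjusted p = 0.369), although 1.78 passed with the matrix values and 1.71 without background correction. Cyp2e1, an ethanol-oxidising cytochrome and a male-biased kidney transcript on the list used here, was at 9.46, 11.97 and 13.62 in the healthy lungs, 6.17, 6.41 and 8.09 in the bleomycin lungs, 14.34, 14.40 and 14.15 in the healthy kidneys and 11.40 and 10.43 in the UUO kidneys. Healthy lung 3, which held liver transcripts, had the highest lung level of Cyp2e1, Ces1f, Ces1e and Fmo5.

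Without that lung the Cyp2e1 lung change was -3.83 (adjusted p = 0.0151) in place of -4.80 ± 1.10, that of Ces1f -3.34 and that of the monooxygenase Fmo5 -1.84 in place of -2.54 ± 0.54. The kidney falls were -3.38 ± 1.23 for Cyp2e1, -3.28 ± 0.60 for Fmo5 and -2.72 ± 0.62 for the carboxylesterase Ces1e. That of Cyp2e1 did not pass without UUO kidney 1 (adjusted p = 0.0794) or UUO kidney 2 (adjusted p = 0.203), and that of Ces1e was -4.08 and -1.36 in these fits. Liver transcripts were also higher in the healthy than in the UUO kidneys, with summed levels of 14.58 to 15.13 against 12.29 and 11.90, and their part in these falls was not tested. Cyp2a5, a coumarin hydroxylase, was highest in healthy lung 2 and fell in both (-2.80 ± 0.72 and -3.48 ± 0.81, difference 0.67 ± 1.09, adjusted p = 0.645). Of its other 4 probes 2 had kidney changes of -5.45 and -5.46, with passing differences of 3.27 and 3.47 (adjusted p = 0.0346 and 0.0284). Cyp4b1, which oxidises fatty acids and is also a male-biased kidney transcript here, was at 12.15, 11.78 and 11.76 in the healthy lungs, 10.42, 10.66 and 10.82 in the bleomycin lungs, 14.32, 14.06 and 13.99 in the healthy kidneys and 9.78 and 9.04 in the UUO kidneys. It fell in both and more in kidney (-1.26 ± 0.20 and -4.71 ± 0.22, difference 3.45 ± 0.29, adjusted p = 8.06e-06). Its neighbour Cyp4b1-ps2 had -1.35 ± 0.18 and -4.09 ± 0.20, and probes of such close copies may read each other.

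Fatty acid oxidation genes fell in 7 of 21 cases in lung and in 12 in kidney, 4 fell in both, and 8 of 9 passing differences lay higher in lung (medians -0.44, -1.16 and 0.47). Over all genes 21.8% fell and 21.3% rose in lung, 17% fell in kidney, and 44.9% of the differences passed. Acadl, a dehydrogenase of long-chain fatty acids, fell in kidney alone (0.22 ± 0.22 and -2.02 ± 0.25, difference 2.24 ± 0.33, adjusted p = 0.000242), but its other probe had -0.44 and -0.68 and a difference of 0.24 (adjusted p = 0.479). Without healthy lung 3 and bleomycin lung 1 there were 4 falls in lung and 1 shared fall. Respiratory chain genes fell in 10 of 26 cases in kidney and rose in 2 in lung, and without UUO kidney 2 the kidney falls were 2 and the rises 2. Cycs, cytochrome c, had 0.21 ± 0.19 and -1.36 ± 0.21 (difference 1.57 ± 0.28, adjusted p = 0.000786), and its other 2 probes gave 1.55, which passed, and 0.67, which did not.

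Red cell genes fell in both organs, and far more in lung. All 6 members fell in lung, 4 fell in kidney, and all 6 differences passed (medians -5.29, -0.88 and -4.17). Their summed level was 10.87 to 11.67 in the bleomycin lungs, 16.42 to 16.44 in the healthy lungs and 16.4 to 16.65 in the lungs of UUO mice. The part of the blood held in the lungs at collection in these falls, and in those of lymphocyte genes in lung, was not tested. Hba-a1, the alpha-globin gene, was at 14.86, 14.91 and 14.76 in the healthy lungs, 10.10, 9.26 and 9.47 in the bleomycin lungs, 13.55, 13.73 and 14.13 in the healthy kidneys and 12.28 and 13.44 in the UUO kidneys. The bleomycin lungs lay more than 4 log2 units under the healthy lungs, and the UUO kidneys were below the healthy kidneys by -0.94 ± 0.31 against -5.23 ± 0.28 in lung (difference -4.29 ± 0.42, adjusted p = 1.63e-05). Alas2, the erythroid enzyme of the first heme step, had -5.47 ± 0.45 and -1.42 ± 0.50 (difference -4.05 ± 0.67, adjusted p = 0.000513). Without UUO kidney 1 no red cell gene fell in kidney, and the median difference was -4.84.

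**Figure D5:**
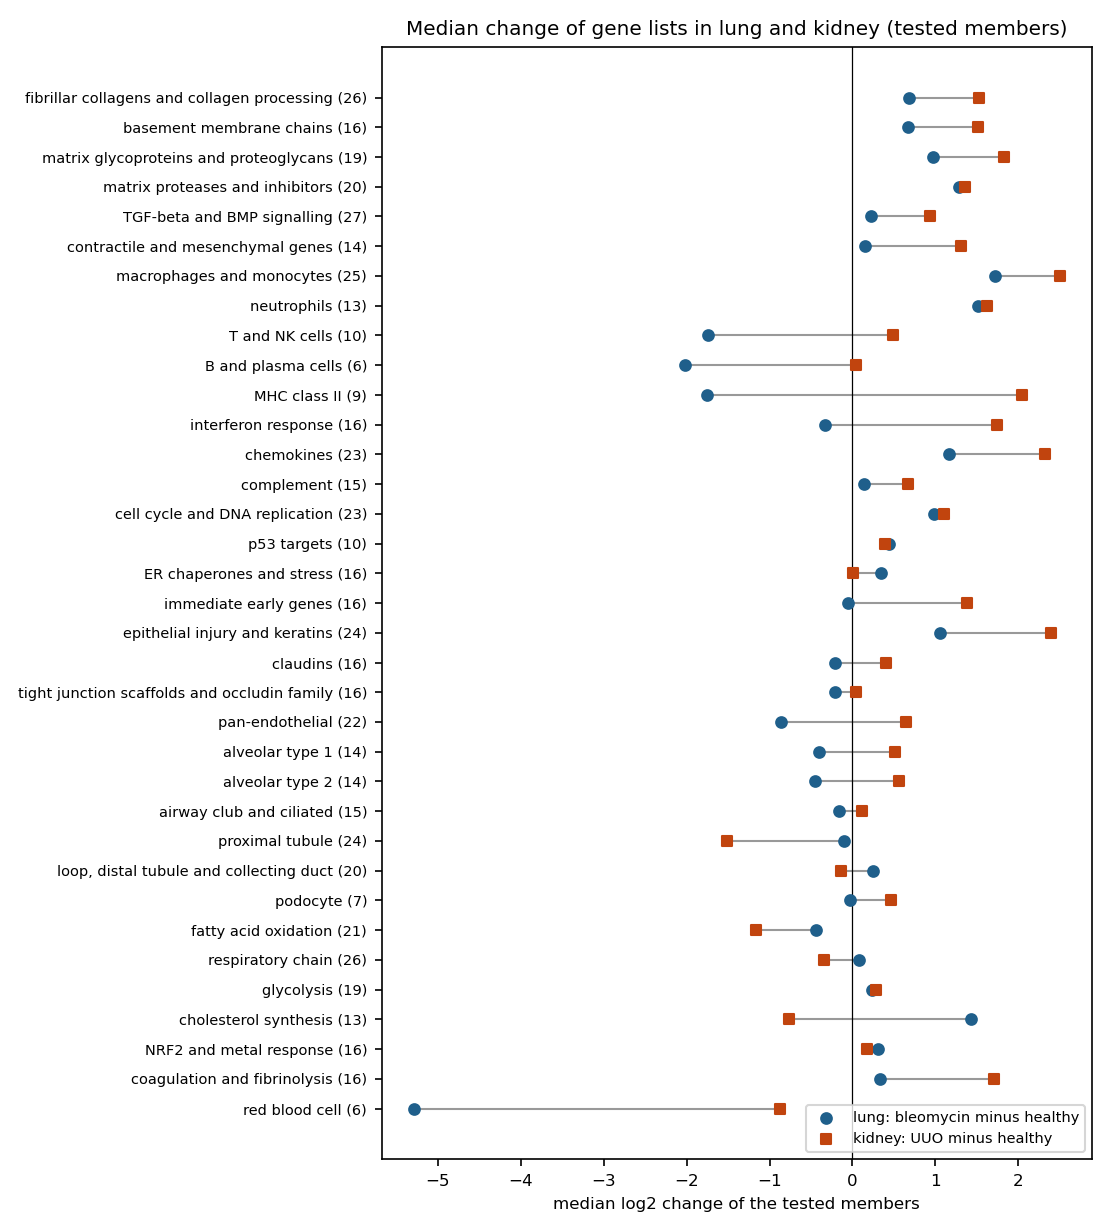
Median change in lung and median change in kidney (x axis, log2) of the members of the gene groups (y axis). MHC class II, T and NK cell and pan-endothelial genes have medians on opposite sides of 0 in the 2 organs (-1.75 and 2.04 for MHC class II), whereas macrophage, matrix and keratin genes have both medians above 0.

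TGF-beta ligands rose in the injured kidney, and their changes in the injured lung did not pass. Tgfb1, the main profibrotic ligand, was at 8.31, 8.31 and 8.37 in the healthy lungs, 8.4, 8.06 and 8.22 in the bleomycin lungs, 6.11, 5.14 and 5.80 in the healthy kidneys and 7.85 and 8.75 in the UUO kidneys. Both UUO kidneys lay above all healthy kidneys, the lung groups overlapped, and the changes were -0.10 ± 0.28 and 2.62 ± 0.31 (difference -2.71 ± 0.41, adjusted p = 0.000285). Tgfb2 had -0.30 ± 0.28 and 1.92 ± 0.31 (difference -2.21 ± 0.42, adjusted p = 0.00116), and Tgfb3 was at least 2.2-fold higher in UUO kidney (adjusted p = 3.2e-05) with no passing change in lung (-0.18 ± 0.19, adjusted p = 0.473). The 3 ligands kept this class in every setting tried.

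Of the 27 TGF-beta and BMP genes as a whole, 9 rose and 6 fell in lung, 16 rose and 3 fell in kidney, 7 moved together and 2 were opposed, and 13 of 15 passing differences lay higher in kidney (medians 0.22, 0.94 and -0.95). Among all genes tested, 21.3% rose and 21.8% fell in lung, 26% rose and 17% fell in kidney, and 44.9% of the differences passed. Ltbp4, which stores latent TGF-beta in the matrix, was opposed (-2.53 ± 0.21 and 0.73 ± 0.23, adjusted p = 0.0228 in kidney), although its kidney change did not pass with the matrix values (0.47) or without UUO kidney 1 (0.43, adjusted p = 0.219). Bmp7, an antifibrotic ligand of the kidney tubule, was opposed the other way (0.78 ± 0.27, adjusted p = 0.0348 in lung and -0.87 ± 0.30, adjusted p = 0.0345 in kidney), but neither change passed without the filter on dim probes, and without UUO kidney 2 the kidney change was -0.29 (adjusted p = 0.463). Fst, follistatin, which binds activins, rose more in lung (4.14 ± 0.41 and 1.28 ± 0.46, difference 2.86 ± 0.61, adjusted p = 0.00262), and its kidney change was 0.55 (adjusted p = 0.43) without UUO kidney 2. Ccn2, connective tissue growth factor and a TGF-beta target, rose in kidney (1.87 ± 0.21, adjusted p = 2.5e-05) and did not pass in lung (0.22 ± 0.18, adjusted p = 0.358), and its difference of -1.66 ± 0.28 did not pass with the matrix values. Without UUO kidney 2, 11 of the genes rose in kidney and none fell.

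Immediate early genes were another group in which the organs differed through the kidney. Of 16 members 2 rose and 3 fell in lung, 10 rose and none fell in kidney, and all 11 passing differences lay higher in kidney (medians -0.05, 1.38 and -1.80). Jun, a subunit of AP-1, was the opposed member, at 9.97, 9.91 and 9.77 in the healthy lungs, 8.85, 8.48 and 8.66 in the bleomycin lungs, 7.45, 7.03 and 7.02 in the healthy kidneys and 8.66 and 9.18 in the UUO kidneys. Its groups were apart in both organs (-1.22 ± 0.18 and 1.75 ± 0.20, difference -2.97 ± 0.27, adjusted p = 1.03e-05). Atf3, a stress factor, had 0.60 ± 0.46 and 4.72 ± 0.52 (difference -4.12 ± 0.69, adjusted p = 0.000556), and Klf6 -0.40 ± 0.18 and 2.50 ± 0.20 (difference -2.90 ± 0.26, adjusted p = 1.03e-05). The other Klf6 probe had 0.89 and 1.77, with a difference of -0.88 (adjusted p = 0.138). Socs3, a feedback inhibitor of IL-6 signalling, rose in both and more in kidney (2.38 ± 0.45 and 5.28 ± 0.50, difference -2.90 ± 0.67, adjusted p = 0.00426).

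Single genes that passed in 1 organ gave some of the largest differences. Acsm3, a mitochondrial acyl-CoA synthetase on the male-biased list, was at 5.02, 6.35 and 7.11 in the healthy lungs, 5.57, 5.26 and 5.45 in the bleomycin lungs, 13, 12.88 and 12.80 in the healthy kidneys and 5.63 and 5.31 in the UUO kidneys. The fall in kidney was -7.42 ± 0.64, adjusted p = 4.94e-06, the lung change did not pass (-0.74 ± 0.57, adjusted p = 0.319), and the difference was 6.68 ± 0.86, adjusted p = 9.28e-05. Cyp7b1, an oxysterol hydroxylase on the same list, fell in kidney (-4.49 ± 0.90, adjusted p = 0.0017), and its lung change of 0.90 ± 0.80 became 2.21 (adjusted p = 0.000409) without healthy lung 3, where it was at 11.89. Ankrd1, a target of stretch signalling, rose in kidney (4.81 ± 0.65, adjusted p = 0.000116) and did not pass in lung (-0.68 ± 0.58, adjusted p = 0.37), with healthy lungs that ranged from 9.69 to 12.54. Serpina10, a liver-made inhibitor of clotting, was at 5.53, 5.40 and 9.94 in the healthy lungs, 6.03, 4.95 and 5.38 in the bleomycin lungs, 6.57, 6.44 and 5.97 in the healthy kidneys and 10.60 and 12.20 in the UUO kidneys. Its kidney change passed (5.07 ± 1.22, adjusted p = 0.00538), but not without UUO kidney 2 (4.28, adjusted p = 0.06), and healthy lung 3 alone stood out among the lungs.

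In lung alone, Epb41l5, a scaffold of epithelial polarity, fell (-2.81 ± 0.19, adjusted p = 1.83e-06) with no passing change in kidney (-0.26 ± 0.21, adjusted p = 0.343; difference -2.55 ± 0.28, adjusted p = 3.41e-05), in every setting tried. Tril, an accessory of Toll-like receptors, fell as well (-2.94 ± 0.40), and its UUO kidneys were at 10.46 and 8.33, so that the kidney change of 0.94 ± 0.45 did not pass, while without UUO kidney 2 it was 2.00 (adjusted p = 0.00038). Hmox1, heme oxygenase 1, rose in lung (3.43 ± 0.40, adjusted p = 6.12e-05), with UUO kidneys at 6.39 and 8.37 and a kidney change of 0.92 ± 0.45 (adjusted p = 0.116) that passed without UUO kidney 1 (1.91, adjusted p = 0.000892). S100a4, a calcium-binding protein of migrating cells, rose in lung (2.52 ± 0.24, adjusted p = 2.1e-05) and had 0.01 ± 0.27 in kidney (difference 2.51 ± 0.36, adjusted p = 0.000198).

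Eln, elastin, gives an example of a shared rise that was larger in lung. It was at 8.63, 8.57 and 8.31 in the healthy lungs, 13.15, 12.40 and 13.04 in the bleomycin lungs, 5.07, 4.43 and 5.17 in the healthy kidneys and 7.02 and 6.43 in the UUO kidneys. No groups overlapped, the changes were 4.36 ± 0.27 and 1.84 ± 0.31, and the difference was 2.53 ± 0.41, adjusted p = 0.000438. Pla1a, a phospholipase, rose in lung (4.03 ± 0.29) and less in kidney (0.95 ± 0.33, adjusted p = 0.0336), and Mmp13, a collagenase, had 3.47 ± 0.35 and 1.08 ± 0.39. For both the kidney rise no longer passed with the matrix values or without UUO kidney 2 (0.51 and 0.53). Col8a1, a short-chain collagen of vessel walls, rose more in kidney (1.08 ± 0.26 and 3.99 ± 0.29, difference -2.91 ± 0.38, adjusted p = 0.000112).

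Tight junction genes, which the series title names, followed neither pattern as a group. Of 16 claudins 2 rose and 4 fell in lung, 6 rose and 2 fell in kidney, 2 moved together, 2 were opposed, and all 5 passing differences lay higher in kidney (medians -0.21, 0.40 and -0.42, the last turning to 0.36 with the matrix values). Over all genes 21.3% rose and 21.8% fell in lung, 26% rose and 17% fell in kidney, and 44.9% of the differences passed. Claudins thus did not differ between the organs more often than other genes. Cldn4, a claudin of distal tubule and of injured alveolar epithelium, was at 6.39, 6.87 and 5.19 in the healthy lungs, 10.76, 11.21 and 10.44 in the bleomycin lungs, 8.19, 7.81 and 8.91 in the healthy kidneys and 12.06 and 12.86 in the UUO kidneys. Injured samples exceeded healthy ones in both organs, with changes of 4.65 ± 0.43 and 4.16 ± 0.48 (difference 0.50 ± 0.65, adjusted p = 0.563, interval -0.91 to 1.91). Cldn5, the endothelial claudin, was at 12.94, 13.02 and 12.58 in the healthy lungs, 12.29, 12.48 and 12.21 in the bleomycin lungs, 7.94, 8.13 and 7.82 in the healthy kidneys and 8.98 and 8.24 in the UUO kidneys. It was opposed with small changes (-0.52 ± 0.19, adjusted p = 0.0403 in lung and 0.65 ± 0.21, adjusted p = 0.0265 in kidney), the lung change did not pass under median scaling (-0.09), the kidney change did not without UUO kidney 1 (0.28), and neither passed with the matrix values.

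Cldn7 was opposed in the same way (-0.62 ± 0.22, adjusted p = 0.0411 and 0.94 ± 0.25, adjusted p = 0.00873), and its lung change was not kept without background correction (-0.27) or under median scaling (-0.39), nor its kidney change without UUO kidney 2 (0.80). Without healthy lung 3 and bleomycin lung 1 no claudin was opposed. Cldn1 and Cldn3, claudins of many epithelia, rose in kidney (2.22 ± 0.33 and 2.64 ± 0.29) and did not pass in lung (-0.77 ± 0.30 and -0.02 ± 0.26). Among 16 scaffolds and relatives of occludin, F11r, the junctional adhesion molecule A, fell in lung (-1.0 ± 0.13, adjusted p = 0.000105) and rose in kidney (0.87 ± 0.14, adjusted p = 0.000457) in every setting, and Pard6b, a polarity protein, did the reverse in the reported setting (0.59 ± 0.16 and -0.85 ± 0.17). Tjp1, the scaffold ZO-1, rose in kidney (0.96 ± 0.19, adjusted p = 0.0017) and did not pass in lung (-0.28 ± 0.17, adjusted p = 0.218), and Ocln, occludin, fell in lung (-0.59 ± 0.16, adjusted p = 0.00924) and did not pass in kidney (0.04 ± 0.17, adjusted p = 0.872), the lung fall being lost with median scaling (-0.28) and with the matrix values (-0.02).

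Several transcripts of lung epithelium, with the Scgb1a1 described above, were higher in the UUO than in the healthy kidneys. Sftpd, a surfactant protein of the lung, was at 14.53, 14.67 and 14.47 in the healthy lungs, 14.42, 14.36 and 14.36 in the bleomycin lungs, 4.45, 4.46 and 4.41 in the healthy kidneys and 9.36 and 8.60 in the UUO kidneys. It was at least 13.4-fold higher in UUO than in healthy kidney (adjusted p = 1.97e-08), did not pass in lung (-0.18 ± 0.16, adjusted p = 0.392), and the difference was at least 15.3-fold (adjusted p = 3.24e-07). Scgb1a1 and Sftpc were at least 91.4-fold and 8.52-fold higher in UUO kidney as well (adjusted p = 6.55e-09 and adjusted p = 2.68e-06). Of 14 alveolar type 2 genes 10 were above background in each UUO kidney and 4 to 5 in the healthy kidneys, with a summed level of 15.43 to 15.66 against 15.20 to 15.29. In the bleomycin lung 5 of the 14 fell and 1 rose (median -0.45), while 21.8% of all genes fell and 21.3% rose. Sftpc was at 13.83 to 13.99 in the healthy and 13.32 to 13.51 in the bleomycin lungs. Sftpb was above background in 1 of the 2 UUO kidneys, at 5.25. The part of these lung transcripts in the other kidney changes was not tested.

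Proximal tubule genes fell in kidney in 15 of 24 cases and rose in 1, while 8 of the 24 were at background in all lungs of both groups. The medians were -0.10, -1.51 and 1.35. Slc7a13, a cystine transporter, was at least 5.5-fold lower in UUO kidney (adjusted p = 1.46e-06), and Slc13a1, a sulfate transporter, rose (2.10 ± 0.22, adjusted p = 1.7e-05). Without UUO kidney 1 the kidney median was -2.15 and 17 members fell, and without UUO kidney 2 it was -0.66 and 9 fell. Kap, an androgen-dependent tubule protein that stands on the male-biased list too, fell in kidney by -2.72 ± 0.33 (adjusted p = 5.39e-05).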

How the data were processed

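Expression of 14 organ samples (15 arrays, a lung of a UUO mouse measured on 2) was read on Illumina mouse whole-genome arrays. The deposited values are probe signal intensities, each with a deposited detection p-value, and the submitters' processing notes name GenomeStudio 5.0. What was done before that export is not stated in the labels. The authors' deposited matrix values are, judged from the values, linear intensities with a background subtracted by an unstated option, and served as an alternative with a floor of 16. The tissue field of 1 healthy kidney names the lung, and its title was followed.

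Intensities were background corrected with nec of limma 3.58.1 in R 4.3.3 (negative controls inferred from the deposited detection p, offset 16), put on the log2 scale and quantile normalized over all arrays, and the 2 arrays of 1 lung were averaged. Probes detected at p under 0.01 in 2 or more samples entered (21054 of 45281 probes, 46.5%; 18027 with 1 gene), and each of 11651 genes was read from its brightest probe on average. Of all probes 34885 carried 1 symbol, 18 several and 10378 none. Median raw signals per array were 95.2 to 125.1. Other kept probes of the genes whose difference passed had the same sign in 73.6% of 3103 cases.

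A limma model with 5 group means (9 residual and 3.10 prior degrees of freedom) gave the lung change, the kidney change and their difference, moderated with eBayes and adjusted by Benjamini-Hochberg over all genes. Where no sample of a group detected a gene (detection p under 0.05), folds against that group are bounds ("at least"). They set the brighter group's mean against the dim group's mean, each dim value raised, if lower, to the dimmest detected probe of its array. Summed levels are log2 of the summed linear values of a list. Replicates are separate mice. The procedure was tested on simulated data.

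Named genes, with a probe above background in each organ and groups that did not overlap where a change passed, were the largest opposed differences (6 each way), the largest changes shared with no passing difference (5 each way), the largest shared with a passing difference, the largest that passed in 1 organ, and, without those conditions, up to 2 members each way of each gene list with the smallest adjusted p of the difference, and a fixed set of matrix and junction genes, of which Spp1 was not measured. Members, lists and this rule were chosen with earlier results of these data known. Outside the rule, chosen after their values were seen, stand Tgfb1, Tgfb2, Tgfb3, Ccn2, Krt18, Krt20, Cd74, Ciita, H2-Aa, Mvd, Lss, Sqle, Cd44, C1qc, Trem2, Mrc1, Cdk1, Top2a, Birc5, Lox, Col5a1, Sftpc, Gbp3, Kap, Eif2s3y, Thbs2, Cldn7, Egfl7, Ramp2, Cxcl1, Ccl12, Apoa1 and Umod. Genes named without a value show which members of a list moved. Alternatives changed the background correction, the scaling, the filter, the probes, the model and the samples. Replicate numbers mark the same mouse in both organs only for healthy lung 3 with healthy kidney 3 and for UUO-mouse lung 2 with UUO kidney 2. The correlation of deviations was -0.122 to 0.185 for the 4 mice that gave both organs, and -0.566 to 0.169 for equal numbers of different mice.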

Additional observations from a re-analysis of the deposited data

Results flagged for a closer look

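The lung and kidney changes differed, by the test of the difference itself, for 5235 genes, and 1177 genes passed in opposite directions in the 2 organs. Among the opposed genes named in the report, the difference in favour of lung was 5.91 for Ugt1a7c, 5.75 for Slc39a8, 5.67 for Nsdhl, 5.07 for Frrs1, 5.06 for Cyp51 and 4.81 for Ugt8a. In favour of kidney it was -7.17 for Fcrls, -6.93 for Ccl5, -6.27 for Thy1, -5.23 for H2-DMb1, -5.06 for H2-Eb1 and -4.83 for Piezo2. The values of Fcrls, Piezo2 and Ugt8a involve groups at background, and their bounds are given with the genes. No group has the 4 samples that a check for a single outlying sample needs.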

How the results depend on the processing

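The count of passing differences moved by less than 1.5 times under every alternative with 1 probe per gene. The genes behind the count changed more. Of the 5235 differences, 2745 passed with the same sign in all 5 other settings of background and scaling. With the matrix values 3110 of them passed with the same sign and 31 with the other sign. With each of the 18027 kept probes tested on its own, 8505 differences, 7907 lung changes and 7860 kidney changes passed and 2056 probes were opposed. Of these, 1107 rose and 949 fell in lung, against 472 and 705 genes in the reported setting. The share of differences that lay higher in lung was 48.8%, against 39.8%. Opposed genes numbered 757 under median scaling and 1964 with the matrix values, and the cause was not tested. Genes that moved together numbered 694 without healthy lung 3 and bleomycin lungs 1 and 3, a choice made after seeing the data. Leaving out 1 sample at a time gave 4616 to 5198 differences, 4125 to 5354 lung changes, 3756 to 5108 kidney changes, 807 to 1457 genes that moved together and 913 to 1139 opposed genes. The extremes for shared genes came without UUO kidney 2 (807) and without UUO kidney 1 (1457). Among the named genes, a difference that passed in either of the settings compared turned sign for Cox6c (0.32, adjusted p = 0.344) and Ocln (0.13, adjusted p = 0.688) with the matrix values and for Adamts4 (1.44, adjusted p = 0.0243) without UUO kidney 2, against -2.39 without UUO kidney 1. Of 178 named genes whose difference passed, besides those with turned sign, 18 no longer did with the matrix values and 12 without UUO kidney 2. With the replicate number as a block 5052 differences passed, with the 11 samples of the 4 groups alone in the fit 5086, and with the mouse as a random block 5363 (correlation 0.0793). The numbers pair only some of the mice, and 3 named genes lost their call under the block. Only 2 UUO kidneys were measured, and sex, lung transcripts and obstruction move together in them. A probe near background gives a bound and no size.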
